A study of Mus musculus with 7 samples.

Results

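The RNA of 7 genes known as markers of glia was compared between control and Dicer1-deficient samples of retinal pigment epithelium (RPE), a sheet of pigmented cells that nourishes the photoreceptors. The genes were Glul, Gfap, Fabp7, S100b, Gja1, Abca8a and Dbi, and every probe set annotated with exactly 1 of these symbols was taken. All 7 were on the arrays, with 74 probe sets among the 53644 probe sets and 5017 genes that had a single symbol. A probe set here reads only a stretch of a gene, and its value is a log2 signal. The RNA came from dissected RPE of mouse pups at postnatal day 5. It was hybridised to 7 Affymetrix arrays, 4 labelled control and 3 labelled Dicer1-deficient. Dicer1 makes mature microRNAs by cleaving their hairpin precursors. The Dicer1-deficient genotype is given as Dicer1loxP/loxP;Dct-Cre, in which Cre is driven by the promoter of dopachrome tautomerase, a gene of pigment cells. All pups came from a mating of Dicer1 flox/+ Dct cre with Dicer1 flox/flox mice, so every pup had at least a single floxed allele by that cross. The labels do not give the genotype of the controls, nor say whether a sample was 1 animal or a pool. The labels do not say in which other cells this Cre acted. Because the source of each sample is not stated, p-values measure only the spread between samples, which may be technical.

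Glia are the support cells of neural tissue. In the retina the main type is the Mueller cell, which spans the tissue, takes up glutamate and converts it to glutamine, and the nerve fibre layer and optic nerve also hold astrocytes. RPE cells are not glia, but they arise from the same neuroepithelium and touch the retina directly, and some genes used as glial markers are active in other cells too. Gja1 encodes connexin 43, a gap junction protein that RPE and many other cells also make, and Dbi encodes an acyl-CoA binding protein made in most tissues. In bulk RNA, fewer cells of a type and less RNA per cell cannot be told apart.

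Control 4 stood apart from the other arrays. Over all probe sets its Pearson correlation with the other 6 ran from 0.9425 to 0.9508, while controls 1 to 3 correlated with each other at 0.9862 or more and the Dicer1-deficient arrays at 0.9804 or more. Its median signal was 6.05, against 6.22 to 6.26 on the other arrays. Results that rest on it are given with and without it. Of the RPE markers listed, 9 were measured, all above 6.22, the median signal of the whole table, and they included Pmel, a melanosome matrix protein gene, at 12.66 in the controls. Their mean was 10.83 to 11.11 on the control arrays and 10.35 to 10.59 on the Dicer1-deficient ones, and of the 9 only Kcnj13, a potassium channel gene of RPE, passed the test at its brightest probe set (-1.19, adjusted p = 0.00510 by limma). When probe sets were averaged 4 of the 9 fell, which were Kcnj13 (-1.18), Sulf1 (-0.84), Rdh5 (-0.72) and Rdh10 (-0.54), with limma's adjusted p from 8.11e-04 to 0.0383. Col3a1, a fibroblast collagen gene, read 13.18 in the controls, so the signal was not that of RPE genes alone. The brightest probe set of Dicer1 itself read 10.62 ± 0.26 (SD, n = 4) in the controls against 10.57 ± 0.13 (SD, n = 3). Which exons are floxed is not in the labels, so this is no check of the genotype.

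Fabp7, Gja1 and Glul were the members whose signal was higher in the Dicer1-deficient arrays with no overlap between the groups. At the brightest probe set of each gene the differences were small, 1.10-fold to 1.35-fold, and none of the 7 genes passed limma's test with Benjamini-Hochberg adjustment over all 5017 genes at 0.05. In the same fit 117 genes (2.33%) passed, 1.42% upward and 0.917% downward. Without adjustment for the number of genes 2 members, Fabp7 and Gja1, had a limma p under 0.05, as did 14.5% of all genes. The groups did not overlap in 16.3% of all genes, 9.27% with the Dicer1-deficient arrays higher, and 5 of the 7 members had a positive log2 fold change against 48.1% of all genes. When all probe sets of a gene were averaged, Fabp7 and Gja1 passed and rose by 0.68 and 0.39 (log2), where 5.86% of all genes passed, 3.03% upward and 2.83% downward. On that scale the groups did not overlap in 18.9% of all genes, 10.2% with the Dicer1-deficient arrays higher, and 45.6% of all genes had a positive difference, again against 5 of the 7 members. Over the 74 single probe sets none passed, 16 had an unadjusted limma p under 0.05 (11.7% of all probe sets did), and 53 were higher in the Dicer1-deficient arrays (49.7% of all). The groups did not overlap at 18 of the 74 with the Dicer1-deficient arrays higher (7.35% of all probe sets) and at 1 with them lower (6.62%). Probe sets of 1 gene are not independent, and 37 of the 74 belong to Abca8a and 12 to Gfap. These counts are therefore a description of 7 genes on the same arrays and not of 74 separate results. The members were also chosen with earlier results of these data known, so no excess over the shares of all genes is read from them. S100b and Dbi had lower values in the Dicer1-deficient arrays, and Abca8a and Gfap higher ones, all with overlapping arrays and none past the test in either way. The plot of all 7 genes by array shows the levels.

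**Figure D1:**
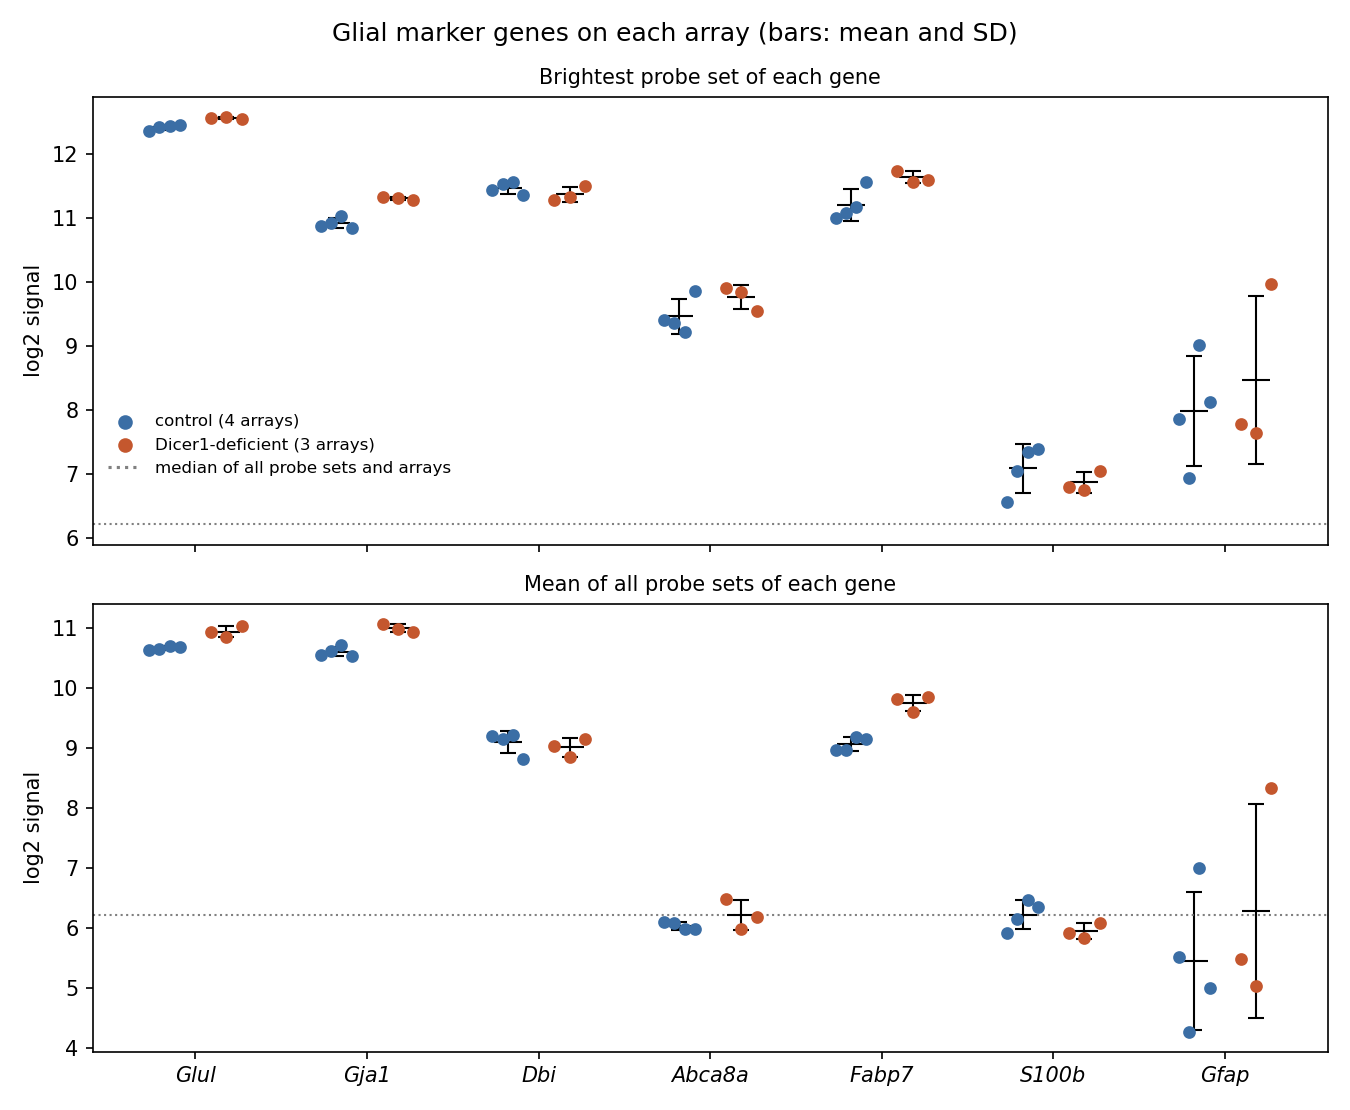
Log2 signal of the 7 glial marker genes on each array (points), with the mean and SD of the 4 control and 3 Dicer1-deficient arrays (bars), at the brightest probe set of each gene (upper panel) and averaged over all its probe sets (lower panel). Glul, Gja1 and Fabp7 do not overlap between the groups in either panel, and Gfap spreads from 6.95 to 9.98 in the upper panel. Signals of different genes come from different probes and are not amounts of RNA that can be ranked.

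The stretches before the transcription starts of these 3 genes, and of Gfap for contrast, are shown because the first 3 lay higher together and Gfap did not follow them. Each line gives the 250 bases before the RefSeq start (GRCm38.p6), 5′ to 3′ on the strand of the gene, with matches to any of 7 short motifs in capitals. They lie at chr10:56377050-56377299 (plus strand) for Gja1, chr10:57784673-57784922 (plus) for Fabp7, chr1:153899679-153899928 (plus) for Glul and chr11:102897201-102897450 (minus) for Gfap.
Gja1: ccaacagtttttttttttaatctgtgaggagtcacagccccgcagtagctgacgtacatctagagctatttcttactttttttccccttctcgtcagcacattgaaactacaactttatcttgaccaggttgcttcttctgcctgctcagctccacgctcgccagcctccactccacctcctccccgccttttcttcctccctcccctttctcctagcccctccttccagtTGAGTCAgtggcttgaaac
Fabp7: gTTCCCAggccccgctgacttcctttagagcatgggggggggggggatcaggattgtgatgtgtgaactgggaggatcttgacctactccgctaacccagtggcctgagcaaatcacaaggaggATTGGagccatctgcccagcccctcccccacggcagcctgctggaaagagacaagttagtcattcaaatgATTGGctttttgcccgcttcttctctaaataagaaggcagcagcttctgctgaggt
Glul: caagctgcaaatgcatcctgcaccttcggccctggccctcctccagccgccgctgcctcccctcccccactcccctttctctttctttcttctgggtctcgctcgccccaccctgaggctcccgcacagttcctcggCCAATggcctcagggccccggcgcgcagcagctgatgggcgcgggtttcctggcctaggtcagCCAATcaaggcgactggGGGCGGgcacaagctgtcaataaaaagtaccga
Gfap: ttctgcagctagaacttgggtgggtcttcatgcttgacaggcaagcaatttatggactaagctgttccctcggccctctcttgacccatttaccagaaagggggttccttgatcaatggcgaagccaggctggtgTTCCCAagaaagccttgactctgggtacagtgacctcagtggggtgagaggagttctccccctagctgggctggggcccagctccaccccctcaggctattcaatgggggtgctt
The motifs were searched on both strands in all 32851 RefSeq windows of this length, and no matches overlapped within the windows of the members. The CCAAT box (CCAAT) was found before Glul, Fabp7, S100b and Dbi, 4 of the 7 genes, and in 33.8% of all windows. The Notch effector motif (TGGGAA) was found before Gfap, Fabp7, S100b and Abca8a, and in 21.6% of all windows. The AP-1 motif (TGANTCA) was found before Gja1 alone among the members, 19 to 13 bases before the start, and in 6.75% of all windows. The GC box (GGGCGG) was found before Glul alone, and in 32.7% of all windows. TATAAA, TTCNNNGAA (the STAT motif) and ATTTGCAT (the POU octamer) had no match in any member's window, and 12.4%, 7.02% and 1.60% of all windows held them. No motif was shared by Gja1, Fabp7 and Glul. A match is a description of the letters and not a bound site.

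Fabp7 encodes brain lipid binding protein, which carries fatty acids in radial glia, immature astrocytes and Mueller cells. Its brightest probe set (10363229) read 11.002, 11.089, 11.178 and 11.561 in controls 1 to 4 and 11.744, 11.570 and 11.598 in Dicer1-deficient arrays 1 to 3. Control 4 lay just under the lowest Dicer1-deficient array, and the other controls lay clearly lower. The log2 fold change was 0.43 (SE 0.15, adjusted p = 0.226 by limma), or 0.55 with control 4 left out (adjusted p = 0.0196 by limma). Leaving out control 4 raised the number of all genes that passed from 117 to 260 of 5017. All 6 probe sets had higher means in the Dicer1-deficient arrays, by 0.43 to 0.88 on the log2 scale. At 5 of the 6, or 83.3%, the groups did not overlap, against 7.35% of all probe sets for this direction. None of the 6 passed limma's test over all probe sets, which 1.06% of all probe sets did.

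Control 4 departed from the other controls in both directions within Fabp7. It was the highest control at 3 probe sets, such as 10363228 (9.70 against 8.87 to 9.15), and the lowest at 2, such as 10363225 (6.84 against 7.15 to 7.39). Averaged over the 6 probe sets, Fabp7 read 8.98, 8.98, 9.19 and 9.16 in the controls and 9.82, 9.61 and 9.85 in the Dicer1-deficient arrays. Control 4 was no longer apart on this scale. The group means were 9.08 ± 0.11 (SD, n = 4) for the controls against 9.76 ± 0.13 (SD, n = 3), 1.61-fold higher (log2 fold change 0.68, SE 0.10, adjusted p = 0.00369 by limma). This call was kept with each array left out in turn, with limma's adjusted p from 0.00172 to 0.0280.

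The Gja1 signal differed evenly across its probe sets. Its brightest probe set (10363175) read 10.88, 10.92, 11.03 and 10.85 in controls 1 to 4 and 11.33, 11.31 and 11.29 in the Dicer1-deficient arrays. Every Dicer1-deficient array was above every control, and the groups were separated by more than the spread within either. The log2 signal was 10.92 ± 0.08 (SD, n = 4) against 11.31 ± 0.02 (SD, n = 3). The log2 fold change was 0.39 (SE 0.09, 95% interval 0.18 to 0.60, adjusted p = 0.0803 by limma). Without control 4 it was 0.36 (adjusted p = 0.0443 by limma), in a fit where 260 of 5017 genes passed, against 117 with all 7 arrays. All 4 probe sets of Gja1 separated the groups in the same direction (7.35% of all probe sets did), with log2 fold changes from 0.32 to 0.44. On their mean the log2 fold change was 0.39 (SE 0.08, adjusted p = 0.0252 by limma), 1.31-fold. That call was lost on leaving out control 1 (adjusted p = 0.0754 by limma), control 2 (0.0818) or Dicer1-deficient array 1 (0.126), 2 (0.0999) or 3 (0.0713), while the log2 fold change stayed between 0.35 and 0.42.

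Fabp7 and Gja1 are near neighbours on chromosome 10, with 3 protein-coding genes between them in RefSeq order. Hsf2, a heat shock factor gene, had a log2 fold change of 0.46 at its brightest probe set (adjusted p = 0.729 by limma) and 0.07 on the mean of its probe sets (0.929). Serinc1, a membrane protein gene, had 0.30 (0.246) and 0.18 (0.431). Pkib, an inhibitor of protein kinase A, had -0.06 (0.964) and -0.16 (0.402). None of the 3 passed on either scale. At the brightest probe sets the differences of Hsf2 and Serinc1 were of the size of those of Fabp7 and Gja1. On the mean of probe sets all 3 were smaller than those of Fabp7 (0.68) and Gja1 (0.39).

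Glul encodes glutamine synthetase, the enzyme by which Mueller cells and astrocytes turn glutamate into glutamine. Its brightest probe set (10350755) was brighter than the brightest probe set of 99.6% of all genes and read 12.37, 12.43, 12.43 and 12.45 in the controls and 12.56, 12.58 and 12.55 in the Dicer1-deficient arrays. The arrays fell into 2 narrow bands without overlap. The difference was 0.14 on the log2 scale, or 1.10-fold (SE 0.08, 95% interval -0.05 to 0.34; adjusted p = 0.523 by limma). All 5 probe sets were higher in mean in the Dicer1-deficient arrays, by 0.12 to 0.47, and 2 of them separated the groups, where 7.35% of all probe sets did so in this direction.

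On the mean of its probe sets Glul had a log2 fold change of 0.27 (SE 0.08; adjusted p = 0.0807 by limma). Without control 4 it passed, at 0.28 (adjusted p = 0.0212 by limma), where 17.0% of all genes passed. Probe set 10374454 of Glul lies by its number among genes of chromosome 11, next to Spred2, while Glul is on chromosome 1, so which copy of the sequence it reads is uncertain. With that probe set left out the mean gave 0.27 (adjusted p = 0.0859 by limma).

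**Figure D2:**
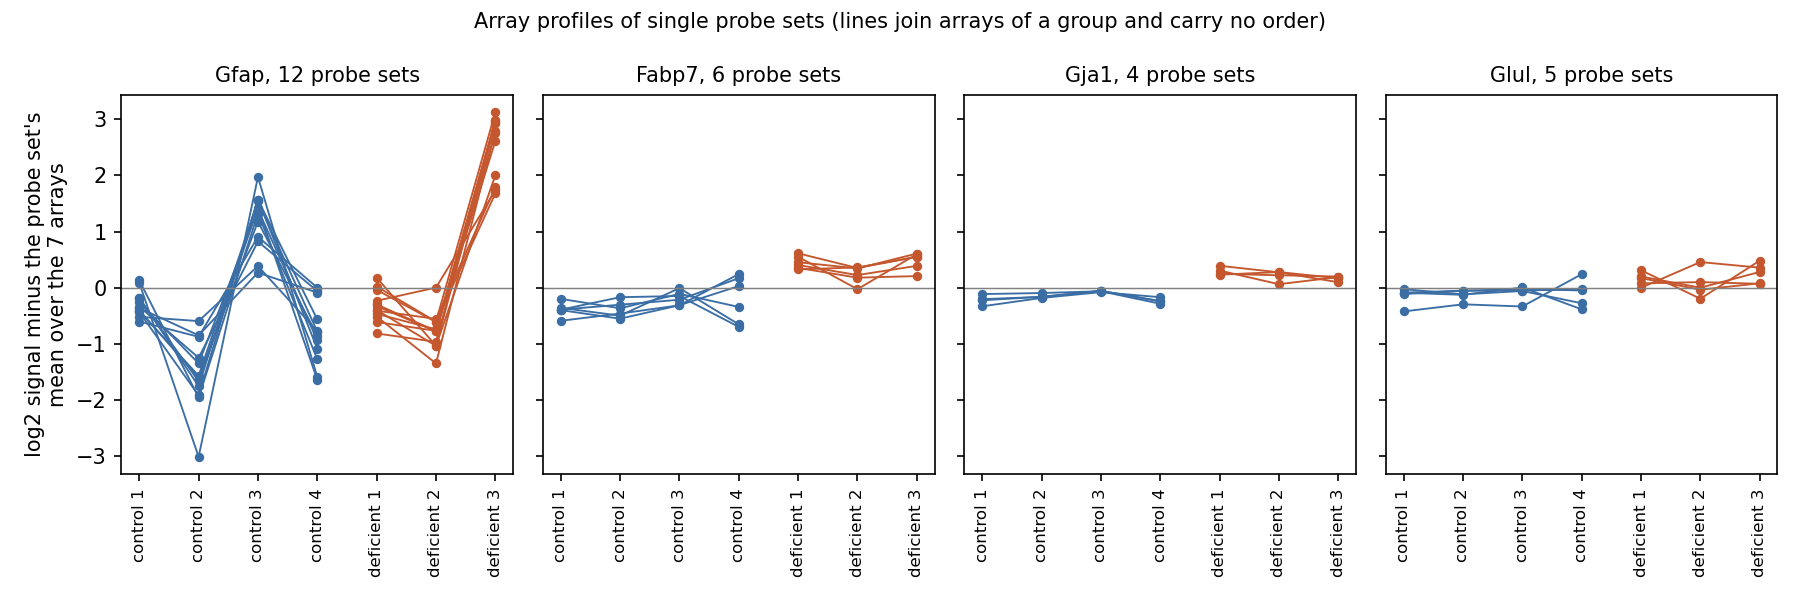
Log2 signal of each probe set of Gfap, Fabp7, Gja1 and Glul on the 7 arrays, as the difference from the mean of that probe set (a line per probe set, blue for control and orange for Dicer1-deficient arrays). Control 3 and Dicer1-deficient array 3 are high at every probe set of Gfap, while the probe sets of Gja1 step up between the groups and those of Fabp7 spread most on control 4.

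At the brightest probe sets the mean levels of fibroblast and scleral genes, and of melanocyte and Schwann cell genes, differed without overlap of the groups. The means of the other cell lists in this paragraph overlapped. The part of these cells in the values of Fabp7, Gja1 and Glul was not tested. The 6 measured photoreceptor markers, 3 of them above the median signal, had a mean of 5.38 to 6.29 on the control arrays and 6.12 to 6.67 on the Dicer1-deficient ones. The 4 measured markers of retinal progenitors, 1 of them above the median signal, had a mean of 5.30 to 5.98 against 5.86 to 6.66. The 12 fibroblast and scleral genes had a mean of 11.48 to 11.56 in control and 11.01 to 11.29 in Dicer1-deficient arrays. The 3 melanocyte and Schwann cell genes read 8.83 to 9.26 against 8.33 to 8.47. On the mean of probe sets, the scale of the Fabp7 and Gja1 calls, 4 of the 12 fibroblast and scleral genes fell past limma's threshold. So did 2 of the 3 melanocyte and Schwann cell genes, and none of the photoreceptor or progenitor markers passed on that scale. At the brightest probe sets 1 gene of these lists passed, the progenitor marker Nr2e1 (0.69, adjusted p = 0.0155 by limma). The 8 measured inner retinal neuron genes had a mean of 6.66 to 6.90 in control and 6.75 to 6.83 in Dicer1-deficient arrays. Of these, Tfap2a fell at its brightest probe set (-0.99, adjusted p = 0.0470 by limma) and on the mean (-0.78, 0.0109). Tfap2b rose past the threshold on the mean only (0.81, adjusted p = 0.0437 by limma). The 6 lens genes had a median log2 fold change of 1.34 with widely spread arrays (6.08 to 8.03 against 7.16 to 8.99), and none passed. The 11 muscle genes had a mean of 8.82 to 9.13 in control and 8.70 to 9.32 in Dicer1-deficient arrays. For the 2 endothelial and pericyte genes it was 10.54 to 10.90 against 10.37 to 10.81. For the 2 macrophage genes it was 8.99 to 9.35 against 8.83 to 9.14. No gene of these last lists passed on either scale. These log2 signals have no true zero, so no marker can be said to be absent.

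Gfap varied more between arrays than any other member, and its groups overlapped. It encodes glial fibrillary acidic protein, the filament protein of astrocytes, which Mueller cells make when the retina is stressed. Probe set 10391800, the brightest, read 7.86, 6.95, 9.02 and 8.13 in controls 1 to 4 and 7.79, 7.64 and 9.98 in Dicer1-deficient arrays 1 to 3. Dicer1-deficient array 3 was highest, control 3 was next, and the other arrays of both groups were mixed below them. The log2 fold change was 0.48 (SE 0.65, 95% interval -1.03 to 1.99; adjusted p = 0.866 by limma). Without Dicer1-deficient array 3 it turned to -0.28 (adjusted p = 0.955 by limma).

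The order of the arrays was nearly the same at every probe set of Gfap. Dicer1-deficient array 3 was the highest and control 3 the next at all 12, and control 2 was the lowest of the controls at 11. The median correlation between pairs of these probe sets over the 7 arrays was 0.952, a description of probes for 1 transcript on the same arrays. Only 4 of the 12 were above the median signal in mean. Averaged over the 12, Gfap read 5.52, 4.28, 7.01 and 5.01 in the controls and 5.49, 5.05 and 8.33 in the Dicer1-deficient arrays. The lowest of these, 4.28 on control 2, was under the lower quartile of the table (4.63), and the table has no detection calls, so no fold is read from this span. At the brightest probe set the highest array was 8.18-fold above the lowest, a wider span than for 99.6% of all genes.

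The 8 measured genes of the brain astrocyte list differed little between arrays, and which array was highest depended on the scale. At their brightest probe sets they had a mean of 8.12 on control 3 and 8.17 on Dicer1-deficient array 3, inside a range of 8.02 to 8.37, with control 4 the highest. Averaged over probe sets, Dicer1-deficient array 3 was the highest at 6.89, against 6.68 and 6.69 on the other Dicer1-deficient arrays, and control 3 read 6.87, like control 1 (6.87) and above control 2 (6.82) and control 4 (6.80). A list mean varies less than a single gene, so these ranges are not set against that of Gfap. By Pearson correlation over the 7 arrays, the genes most like Gfap were Higd1b (r = 0.91, Spearman's rho = 0.93), a gene of pericytes, and Syt16 (r = 0.88, rho = 0.86), a synaptotagmin gene. Higd1b spanned only 4.89 to 5.22, below the median signal, so its likeness is in the order of the arrays and not in the size of the differences.

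S100b, which encodes a calcium-binding protein of astrocytes, Mueller cells and Schwann cells, was dim. At the brightest, 10364152, the signal was 6.57, 7.06, 7.36 and 7.39 in the controls and 6.80, 6.76 and 7.05 in the Dicer1-deficient arrays. The Dicer1-deficient arrays lay within the range of the controls. The log2 fold change was -0.22 (SE 0.21, 95% interval -0.70 to 0.26; adjusted p = 0.763 by limma). All 3 probe sets had lower means in the Dicer1-deficient arrays, by -0.22 to -0.32, and at 1 of them, 10364150, the groups did not overlap (4.68 to 4.92 against 4.45 to 4.48), close to the lower quartile of the table, 4.63. On the mean of the 3 the log2 fold change was -0.28 (adjusted p = 0.341 by limma).

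Dbi was bright and differed little between the groups over all 7 arrays. Probe set 10357244, the brightest of 7, read 11.44, 11.53, 11.57 and 11.36 in the controls and 11.29, 11.33 and 11.50 in the Dicer1-deficient arrays, a log2 fold change of -0.10 (SE 0.10, 95% interval -0.34 to 0.13; adjusted p = 0.776 by limma). The groups overlapped, and 6 of its 7 probe sets had slightly lower means in the Dicer1-deficient arrays, none by more than 0.16. Control 4 was the lowest control at all 7. Without control 4 the log2 fold change at the brightest probe set was -0.14 (adjusted p = 0.391 by limma). On the mean of the 7 probe sets it was -0.09 (adjusted p = 0.842 by limma), or -0.18 without control 4 (adjusted p = 0.165 by limma). Probe set 10376095 lies by its number between P4ha2 and Acsl6 of chromosome 11, where RefSeq places a pseudogene with the synonym Dbi-ps, while Dbi is on chromosome 1. Its log2 fold change was -0.10, like that of the other probe sets.

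Abca8a encodes a lipid transporter of the ABCA family with close copies beside it on chromosome 11, and probes may not tell these copies apart. Its brightest probe set (10392559) read 9.42, 9.37, 9.23 and 9.86 in controls 1 to 4 and 9.90, 9.84 and 9.55 in the Dicer1-deficient arrays. Control 4 lay among the Dicer1-deficient arrays and the other controls below them. The log2 fold change was 0.30 (SE 0.17, 95% interval -0.10 to 0.69; adjusted p = 0.508 by limma), or 0.43 without control 4 (adjusted p = 0.0843 by limma).

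The 37 probe sets of Abca8a did not move as 1 signal. Of these, 25 had higher and 12 lower means in the Dicer1-deficient arrays, from -0.43 to 0.89, and the median correlation between pairs over the arrays was 0.14. Of the 16 above the median signal, 14 were higher. At 7 of the 37, or 18.9%, the groups did not overlap, in each with the Dicer1-deficient arrays higher (7.35% of all probe sets). Over the mean of the 37 the log2 fold change was 0.17 (adjusted p = 0.567 by limma). Of its neighbours, Abca8b had a log2 fold change of -0.07, Abca9 -0.09, Abca6 -0.43 and Abca5 -0.09. Among the remaining ABCA genes measured, Abca13 had 0.79 without overlap of the groups (adjusted p = 0.133 by limma), but 0.003 on the mean of its probe sets. Abca12 had 0.26 and Abca7 -0.33. None of these 7 other ABCA genes passed. The mean of these 7 was 9.21 on control 4, against 8.45 to 8.48 on the other controls and 8.63 to 8.69 on the Dicer1-deficient arrays.

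**Figure D3:**
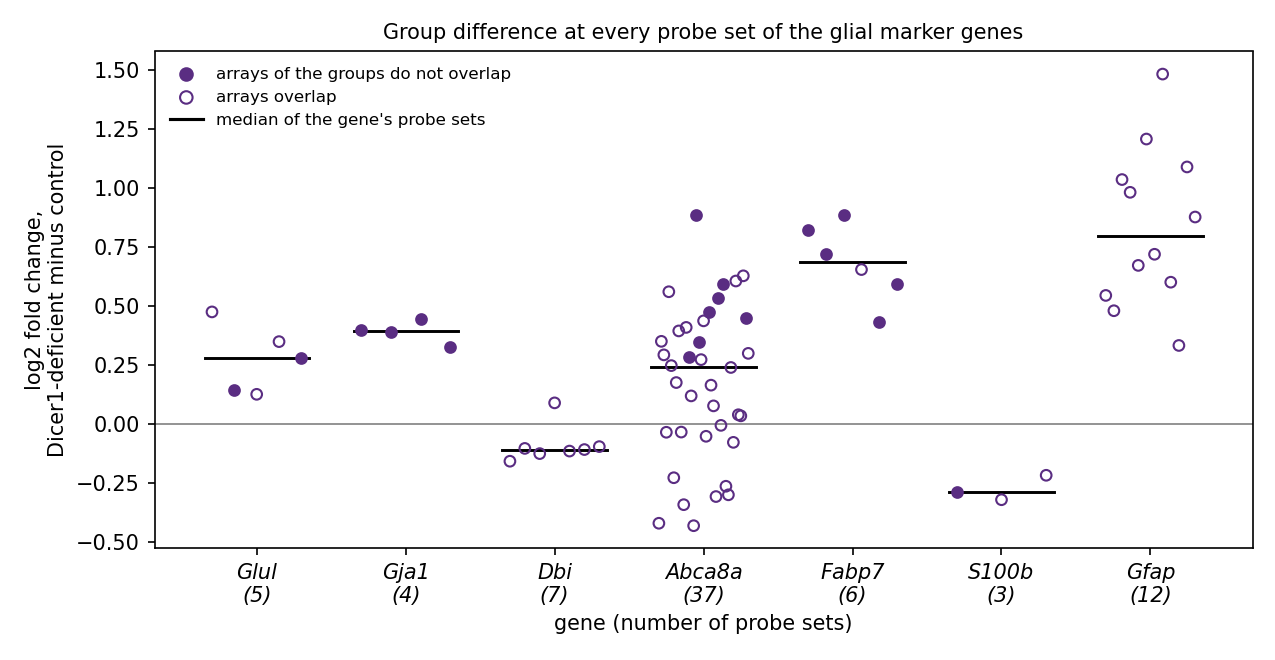
Log2 fold change (Dicer1-deficient minus control) at each of the 74 probe sets of the 7 genes, filled where the arrays of the groups do not overlap, with the median of each gene as a line. All probe sets of Fabp7, Gja1, Glul and Gfap lie above 0 and all 3 of S100b below, but only Fabp7, Gja1, Glul, Abca8a and S100b have probe sets whose groups do not overlap.

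By the order of brightest signals the members ran from Glul through Dbi, Fabp7, Gja1 and Abca8a to Gfap and S100b, at 99.6%, 96.4%, 96.2%, 93.8%, 74.7%, 55.0% and 40.6% of all genes with a dimmer brightest probe set. The arrays of Dbi, Fabp7 and Gja1 overlapped, as did those of Gfap with both Abca8a and S100b. Probes differ in response, so this is an order of signals and not of RNA amounts. With 4 arrays against 3, the exact permutation test used here, two-sided by doubling the smaller tail, cannot give less than 0.0571. Glul, Fabp7 and Gja1 had this smallest exact p at their brightest probe set, while the other members had exact p from 0.171 to 0.629.

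**Figure D4:**
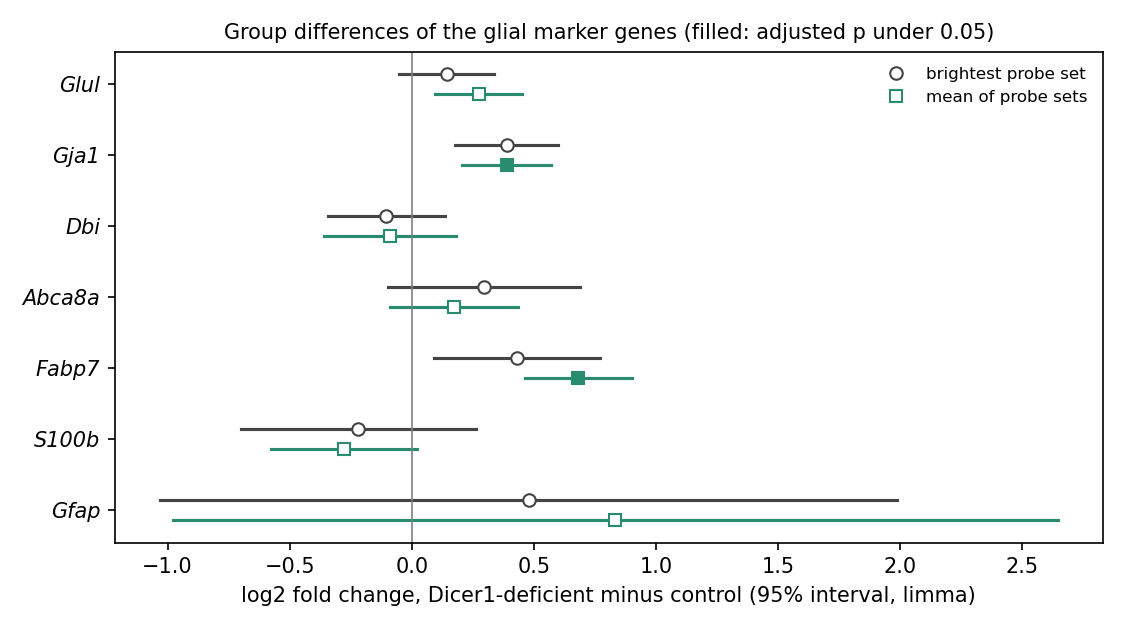
Log2 fold change of each glial marker gene with its 95% interval from limma, not adjusted for the number of genes, at the brightest probe set (circles) and on the mean of all probe sets (squares), filled where the adjusted p was under 0.05. Only Fabp7 and Gja1 on the mean of probe sets are filled, and the intervals of Gfap are the widest.

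Genes whose array pattern was most like that of the higher members were looked up over all 5017 genes. They are the closest of many over 7 arrays, so the correlations are a description without a test. Gja1 was most like Niban1, a stress-response gene (r = 0.995, rho = 1), which rose by 0.98 on the log2 scale (adjusted p = 0.00493 by limma), and Caps2, a calcium-binding protein gene (r = 0.989, rho = 0.96), which rose by 1.01 (adjusted p = 0.0201 by limma). Glul was most like Ppil4 (r = 0.994, rho = 0.96), a peptidyl-prolyl isomerase gene that differed by 0.21 (adjusted p = 0.326 by limma), and Cabcoco1 (r = 0.990, rho = 0.86), which rose by 1.64 (adjusted p = 0.00344 by limma). Fabp7 was most like Stk36 (r = 0.981, rho = 0.96), a kinase gene of motile cilia, and Plcd4 (r = 0.980, rho = 0.96), a phospholipase C gene, with log2 fold changes of 0.67 and 0.24 that did not pass limma (adjusted p = 0.173 and 0.380).

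Likenesses of the same size were found for S100b, Abca8a and Dbi. S100b was most like Ctla4 (r = 0.966, rho = 0.96) and Rnf144b (r = 0.955, rho = 0.86), Abca8a most like Hsd17b7 (r = 0.993, rho = 0.93) and Npepps (r = 0.987, rho = 0.96), and Dbi most like Nlgn2 (r = 0.980, rho = 1) and Tc2n (r = 0.976, rho = 0.96). None of these 6 passed limma's test (adjusted p from 0.464 to 0.838). Among the members, Glul was closest to Gja1 (r = 0.917 at the brightest probe sets) and Fabp7 (r = 0.875). On the mean of probe sets Glul was closer to Fabp7 (r = 0.977) than to Gja1 (r = 0.876). Each of these genes separated the groups, so such correlations in part restate that separation.

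Few other glial genes were among the genes analysed, most of which lie on chromosomes 1, 10, 11, 12 and 13. Measured were 9 of 45 listed Mueller cell and retinal astrocyte genes, 8 of 33 brain astrocyte genes and 6 of 29 myelinating glia genes. Those measured changed singly and in both directions. At the brightest probe sets 1.42% of all genes rose and 0.917% fell past the threshold. Of 9 measured genes of the Mueller cell and retinal astrocyte list, 1 rose and none fell. The list's median log2 fold change was -0.05, against -0.01 over all genes. The riser was Nr2e1, a nuclear receptor gene of retinal progenitors and Mueller cells (7.20 ± 0.09, SD, n = 4, to 7.90 ± 0.11, SD, n = 3; log2 fold change 0.69, adjusted p = 0.0155 by limma). Averaged over its probe sets it no longer passed (0.45, adjusted p = 0.0758 by limma). Sox9, a transcription factor gene of Mueller cells and RPE, differed by 0.24 (adjusted p = 0.351 by limma) and passed on the average over its probe sets (0.33, adjusted p = 0.0461 by limma). Gpx3 (-0.57) and Sparc (-0.13) did not pass.

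Of 8 measured brain astrocyte genes, 1 rose, Acsl3, a fatty acyl-CoA synthetase gene (9.31 ± 0.07, SD, n = 4, to 9.89 ± 0.10, SD, n = 3; log2 fold change 0.58, adjusted p = 0.0266 by limma), and the median was -0.10. Aldoc, the brain aldolase gene, differed by -0.60 (adjusted p = 0.163 by limma) and fell on the average over its probe sets (-0.53, adjusted p = 0.0270 by limma). Of 6 measured genes of myelinating glia, 1 rose, Aspa, the aspartoacylase gene (1.49, adjusted p = 0.0458 by limma), with a list median of -0.21. Erbb3, the neuregulin receptor gene of Schwann cells and melanocytes, differed by -0.59 (adjusted p = 0.0669 by limma) and fell when its probe sets were averaged (-0.39, adjusted p = 0.0170 by limma), and Cnp (0.20) and Egr2 (-0.32) did not pass.

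Genes related to the members by function or family gave no call at the brightest probe sets, and none of 15 other S100 genes was among the genes analysed here. Of 4 measured genes of glutamate and glutamine metabolism none passed, with Pycr1, a proline synthesis gene, at -0.55 (adjusted p = 0.201 by limma) and past the test on the average over its probe sets (-0.66, adjusted p = 0.0238 by limma). Lgsn, a lens relative of glutamine synthetase, had -0.03. None of 3 other connexin genes passed (Gjc1 -0.14, Gje1 0.09 and Gjd3 -0.07). None of 6 genes of fatty acid and acyl-CoA binding proteins passed, with Fabp3 at -1.13 on widely spread arrays (SD 1.85 in the Dicer1-deficient ones) and Acbd3, a relative of Dbi, at 0.16. None of 3 intermediate filament genes passed (Des 0.03, Nefh 0.28 and Lmnb2 -0.22).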

How the data were processed

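The deposited table holds a log2 signal for each of 65535 probe sets on 7 arrays, as the authors made it. The submitters' processing notes name RMA and Partek 6.6 without their roles. Per the labels' protocols, miRNeasy columns gave the RNA and biotin was the label. That the scale is log2 was judged by the range, 2.71 to 13.5. Genome build, filters and detection calls: not given in the sources used here. If arrays were quantile normalized, differences in total RNA are lost. By the platform annotation 53644 probe sets had 1 symbol, 877 several and 11014 none. Symbols were updated with the RefSeq mouse gene table (4321 current, 698 updated, 13 unmatched). Of the 5017 genes analysed, 4918 are on chromosomes 1, 10, 11, 12 and 13 by RefSeq. Motif windows were the 250 bases before each RefSeq start.

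Each gene was read at its probe set of highest mean signal, with the mean of probe sets as an alternative. Groups were compared with limma 3.58.1 in R 4.3.3 (lmFit, then eBayes; tests two-sided; threshold 0.05 after Benjamini-Hochberg adjustment over every gene or probe set). The rest used pandas 2.3.3 and matplotlib 3.10.9 on Python 3.11.15. Fold changes are Dicer1-deficient minus control, and intervals are 95% intervals of single genes. The members and the gene lists were chosen with earlier results of these data known. Genes named are the members, the 2 most correlated genes of each, and Dicer1. From each list they were drawn from genes past the threshold or the up to 4 of smallest p. For cell markers they were drawn from the up to 3 brightest and those past the threshold, and not every such gene is named. Rdh5 and Rdh10 passed only on the mean of probe sets. Neighbours of members and the ABCA copies were named for their position, and Hsf2, Serinc1 and Pkib after the values of Fabp7 and Gja1 were seen. Alternatives were other normalizations, filters, moderation, array weights, a looser threshold of 0.1, other summaries of probe sets and leaving out each array. Tested on 20 sets of simulated data with the 5017 genes and 200 changed, the brightest-probe-set fit found 34.3% of those shifted by 0.5 (log2) and 75.8% of those shifted by 1, and 5.73% of its calls were false. The number of arrays limits the precision.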

Additional observations from a re-analysis of the deposited data

Results flagged for a closer look

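The mean of the 7 Dbi probe sets was 8.83 on control 4, well below the 9.16 to 9.22 of the other controls. It was the only member whose controls held such a distant array, at its brightest probe set or on the mean of its probe sets, and chance marks about 1 in 20 such groups. Control 4 was also apart from the other arrays over all probe sets.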

How the results depend on the processing

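At the brightest probe set no member and 117 of all genes passed limma's adjusted p of 0.05. S100b, Dbi and Abca8a kept their direction and passed under none of the 26 alternatives run for each, and Gfap passed under none. Gfap turned to -0.28 without Dicer1-deficient array 3, and to -0.19 without it on the mean of probe sets; the cause was not tested. Glul passed under 1, the mean of probe sets without control 4 (0.28).

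Fabp7 passed under 13 and Gja1 under 10 of the 26. Many of the 26 are versions of the mean of probe sets, so these counts are not separate support. All those chosen after seeing the data are such versions, and Fabp7 passed under each of them. On the mean of probe sets (Fabp7 0.68, Gja1 0.39) 2 members and 294 genes passed, as many as without probe sets lying among genes of another chromosome (0.68, 0.39; 2 and 294). The mean of probe sets above the median signal gave 0.68 and 0.39, 2 members and 265 genes. The last 2 alternatives, and leaving out arrays other than control 4 on the mean of probe sets, were chosen after seeing the data. On the median of probe sets Fabp7 alone passed (0.77; 1 member, 176 genes). With array weights both passed (0.52 and 0.35; 2 members, 385 genes, 5 member probe sets). Gja1 alone passed with a trended prior (0.39, 1 member, 138 genes, 3 member probe sets). The same held without moderation (0.39, 1 member, 76 genes) and at a threshold of 0.1 (0.39, 1 member, 213 genes, 3 member probe sets). Quantile normalization gave 0 members, 120 genes and 1 member probe set. The share of all probe sets that passed was counted only with the main settings (1.06%). The member probe set counts of the alternatives are therefore not read against a background.

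With each array left out, counts of all genes ran from 33 to 260, of members from 0 to 2 and of member probe sets from 0 to 2, each highest without control 4; Fabp7 ran from 0.36 to 0.55, Gja1 from 0.36 to 0.43 and Gfap from -0.28 to 0.89. On the mean of probe sets the counts ran from 121 to 853 genes (185 without control 1) and 1 to 3 members, again highest without control 4 (Fabp7 0.71, Gja1 0.37, Glul 0.28); Fabp7 passed each time (0.65 without Dicer1-deficient 1, control 1 or control 2, 0.72 without control 3, otherwise 0.64 to 0.76), Gja1 ran from 0.35 to 0.42, Glul from 0.23 to 0.32 and Gfap from -0.19 to 1.46.

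No paired analysis was possible because the labels carry no replicate numbers, and those used here follow only the order of the samples. The table holds no detection calls, so how far the dim probe sets of Gfap, S100b and Abca8a lie above background is unknown. Leaving out a Dicer1-deficient array leaves 2 in that group.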
